A study of Homo sapiens with 36 samples.

Results

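The ribosomal protein genes are the genes named RPL or RPS followed by a number, together with the stalk genes RPLP0, RPLP1 and RPLP2 and with RPSA. They were taken by name from the gene table, with RPS27L, the RPS6K kinases and pseudogenes left out. The rule found 83 genes of the 29744 in the table, and 82 of them were among the 14988 genes that passed the count filter. The one that failed, RPL10L, a testis-restricted copy of RPL10, had a count of 0 in every library. BxPC-3, an established human pancreatic adenocarcinoma line, had been treated with DMSO or with 3 µM of TRAP1, TRAP-1-NegP, TRAP-1-NegB, JQ1 or MS78 for 2 or 4 h, giving 12 groups of 3 libraries each. The DMSO groups served as vehicle controls at each time. TRAP1 names a compound here, not a gene. JQ1 blocks the bromodomains of the BET proteins, and the labels do not explain the suffixes NegP and NegB. All groups share the cell line and polyadenylated RNA sequencing with 150-base paired-end reads.

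Ribosomal proteins form the large and small subunits of the cytosolic ribosome together with ribosomal RNA, and each is needed in about equal amounts. Their mRNAs are among the most abundant of a growing cell. Most begin with a cytosine and an unbroken run of pyrimidines, the terminal oligopyrimidine (TOP) tract, through which their translation and stability follow nutrient and mTOR signalling. Several of the proteins, such as RPL5 and RPL11, can bind MDM2 when they are free of the ribosome.

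RefSeq promoter windows (GRCh38.p14, 250 bases before to 50 after each annotated start) were matched by symbol for 65 of the 82 genes. At least 1 annotated start was a C followed by 4 or more C or T bases in 47 of the 65, or 72.3%. The same held in 1404 of all 27305 genes with a window, or 5.14%. The sequences below run from 40 bases before the annotated start to 20 bases from it, 5′ to 3′ on the gene's own strand, with the pyrimidine run in capitals. RPS24, RPL22, RPL36A and RPS27A are shown because they were among the genes that rose with TRAP1 at 4 h. RPLP0, RPLP1, RPL35 and RPS9 are shown because they stood low at 2 h. RPL22L1 and RPL7L1 are paralogs that moved in opposite directions. RPS4X is a gene that rose with no such run at its annotated start.
RPS24 (chr10:78033823-78033882, plus strand): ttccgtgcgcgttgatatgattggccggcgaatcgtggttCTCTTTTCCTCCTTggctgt
RPL22 (chr1:6199576-6199635, minus strand): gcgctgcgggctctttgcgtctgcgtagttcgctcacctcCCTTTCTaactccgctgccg
RPL36A (chrX:101390971-101391030, plus strand): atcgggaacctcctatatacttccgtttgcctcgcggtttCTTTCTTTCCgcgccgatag
RPS27A (chr2:55232648-55232707, plus strand): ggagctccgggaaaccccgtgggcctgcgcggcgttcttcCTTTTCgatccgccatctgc
RPLP0 (chr12:120201092-120201151, minus strand): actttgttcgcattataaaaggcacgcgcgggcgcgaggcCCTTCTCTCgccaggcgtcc
RPLP1 (chr15:69452778-69452837, plus strand): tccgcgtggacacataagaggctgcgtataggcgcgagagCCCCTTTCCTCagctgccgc
RPL35 (chr9:124861938-124861997, minus strand): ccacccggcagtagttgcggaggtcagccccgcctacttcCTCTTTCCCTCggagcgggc
RPS9 (chr19:54200818-54200877, plus strand): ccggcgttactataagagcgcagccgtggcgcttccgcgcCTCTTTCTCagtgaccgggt
RPL22L1 (chr3:170870176-170870235, minus strand): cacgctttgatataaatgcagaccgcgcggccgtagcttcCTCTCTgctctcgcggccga
RPL7L1 (chr6:42879576-42879635, plus strand): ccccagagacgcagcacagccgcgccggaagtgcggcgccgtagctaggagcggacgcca
RPS4X (chrX:72277229-72277288, minus strand): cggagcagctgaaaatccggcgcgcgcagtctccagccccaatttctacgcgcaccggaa
Over the whole window on either strand, CCGGAAG was present in 23 of the 65 genes, or 35.4%, against 12.2% of all genes with a window. CACGTG was present in 5 of the 65, or 7.69%, against 8.78% of all genes, and GGGCGG in 37, or 56.9%, against 48.3%. These matches describe letters in the windows only.

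Together the 82 genes took a large share of all TPM, a unit that divides counts by transcript length and scales each library to the same total. In DMSO their share of TPM was 27.4% ± 0.0825 (SD, n = 3) at 2 h and 27.8% ± 0.456 at 4 h. The highest share was that of TRAP1 at 4 h, 30.0% ± 0.233, followed by TRAP-1-NegP at 4 h, 28.8% ± 0.0547. All 3 TRAP1 libraries at 4 h lay between 29.7% and 30.1%, above every other library. The lowest share was that of TRAP-1-NegB at 2 h, 24.96% ± 0.188, and JQ1 at 2 h and MS78 at 2 h lay at 25.3% ± 0.344 and 25.3% ± 0.481. Of estimated counts, which favour long transcripts, the 82 genes took 9.26% ± 0.301 in DMSO at 4 h and 10.3% ± 0.139 with TRAP1 at 4 h. The share of TPM with TRAP1 at 2 h was 26.3% ± 0.134, below DMSO, although more of the genes rose than fell there. RPLP1 and RPL35, the highest by TPM, were among those that fell. A share moves with all other genes in the library, and no test was made on it.

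**Figure D1:**
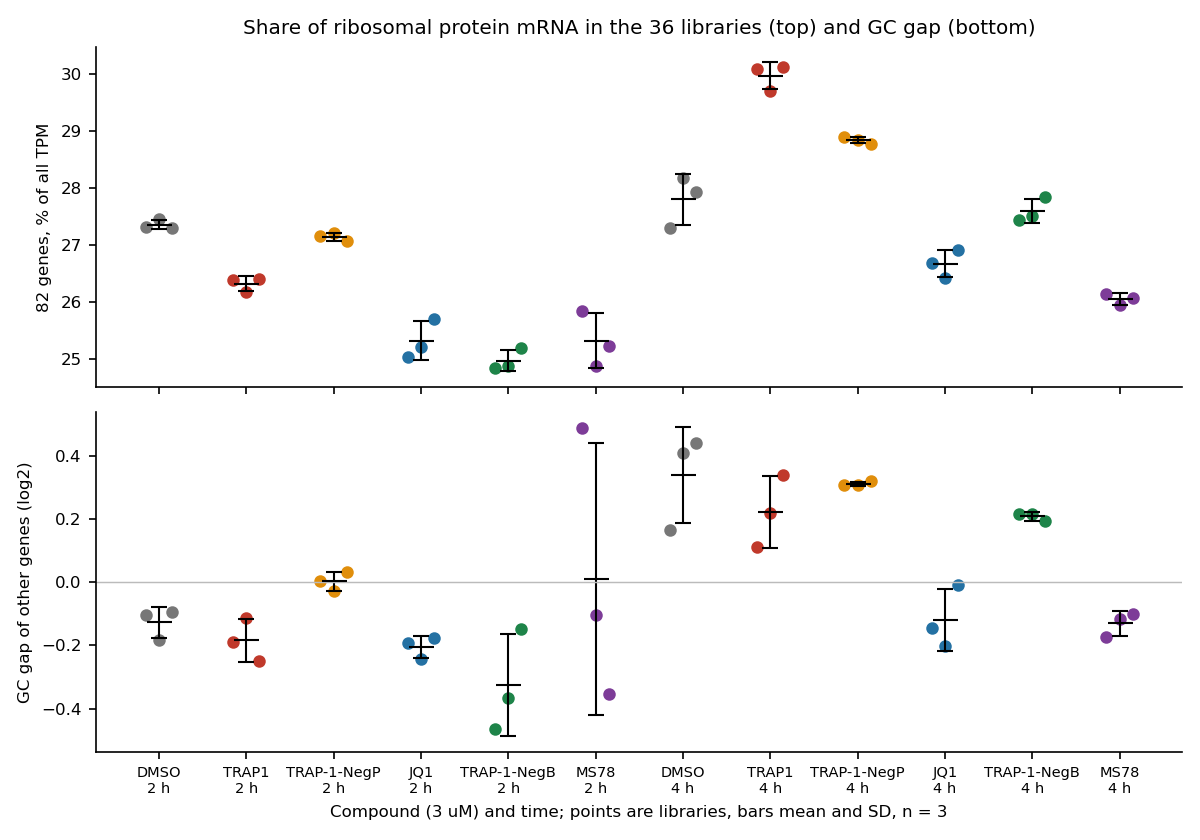
Top, the share of all TPM taken by the 82 ribosomal protein genes (%) in each of the 36 libraries, by compound and time. Bottom, the GC gap of the same libraries: the median log2 deviation of the other genes in the upper GC quartile minus that of the lower quartile. Points are libraries, bars the mean and SD of 3; the TRAP1 libraries at 4 h lie highest in the top panel, between 29.7 and 30.1%, and the GC gap is above 0 in every DMSO library at 4 h and below 0 in every one at 2 h.

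Length-corrected levels spread widely among the members. In the 6 DMSO libraries the highest mean TPM were those of RPLP1 (14298 ± 1948, SD, n = 6), a protein of the acidic stalk, RPL35 (14057 ± 1311) and RPS2 (10416 ± 438). The lowest were the paralogs RPL26L1 (84.9 ± 9.47), RPL39L (46.7 ± 7.29) and RPL3L (0.114 ± 0.136). RPL3L is the copy of RPL3 known from muscle and heart. The order by TPM depends on the transcript lengths used. By mean log2 counts relative to library size over the 12 groups, RPLP0 (12.18) and RPS2 (12.17) lay above RPLP1 (11.04) and RPL35 (10.53).

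Total estimated counts ran from 15288688 to 26608325 per library. The keratins KRT7, KRT8, KRT18 and KRT19 lay between 1646 and 4325 TPM in all libraries and EPCAM and CDH1 between 74.0 and 147, while PTPRC, PDGFRB and COL3A1 had a median of 0. Of the other listed markers of mesenchymal and blood cells, COL1A2 had a median of 0.0138 TPM, COL1A1 lay between 0.728 and 2.40 TPM and CD68, a lysosomal protein gene, between 17.5 and 27.6 TPM. The labels do not say that replicates were separate cultures, so p-values measure the spread between these libraries, which may be technical. Levels below are TMM-scaled counts relative to library size (CPM), and every change is a log2 fold change ± SE from edgeR's quasi-likelihood fit, called at an adjusted p under 0.05 over all tested genes. Libraries are scaled to their own totals and TMM factors, so every rise or fall is relative to the other mRNAs of the library. Absolute amounts were not measured, so a rise of these genes and a fall of other mRNAs cannot be told apart. Nor can fewer cells and less RNA per cell. Reads of ribosomal protein genes can also come from their many processed pseudogenes and from readthrough transcripts, and how Salmon divided them is uncertain. A pair of libraries was known from earlier work on these data to stand apart, TRAP1 at 4 h replicate 1 and MS78 at 2 h replicate 1. The former had 1287 tested genes at 0, against 260 to 929 in the other libraries. The latter had a GC gap, the measure plotted with the shares of TPM, of 0.49 where the other MS78 libraries at 2 h had -0.10 and -0.35.

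After 4 h of TRAP1, 75 of the 82 genes rose against DMSO and 1 fell, with a median change of 0.41, or 1.33-fold. Over all tested genes 22.2% rose and 24.5% fell, and the median change was -0.02. Of the large subunit 47 of 51 rose, and of the small subunit 28 of 31. The gene that fell was RPL7L1, and the 6 that did not pass were RPL26L1, RPL39L, RPL35, RPS21, RPS28 and RPS29. All 75 rises had every TRAP1 library above every DMSO library. Called members rarely overlapped in the other comparisons between groups either, so this adds little to the calls. The share of all tested genes without overlap was not counted.

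RPL7, a large subunit protein, rose most among genes of at least 5 CPM. Its level was 1176, 1217 and 1167 CPM in DMSO at 4 h and 2137, 2115 and 2093 CPM with TRAP1. The groups stood well apart, with a change of 0.83 ± 0.044 (adjusted p = 7.12e-23). RPS24, a small subunit protein mutated in Diamond-Blackfan anaemia, went from 761, 739 and 708 CPM to 1343, 1205 and 1288 CPM, again without overlap, a change of 0.80 ± 0.051 (adjusted p = 1.48e-19). RPL36A followed at 0.76 ± 0.074 (adjusted p = 1.98e-11), from 494, 492 and 450 CPM to 876, 784 and 777 CPM. Each of these genes had its 3 TRAP1 libraries above all DMSO libraries of either time.

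All 8 listed genes whose proteins bind MDM2 rose with TRAP1 at 4 h, with a median of 0.55. Of all 82 members 75 rose, with a median of 0.41, so a rise was not particular to these 8. RPS27A, which encodes a fusion of ubiquitin with a small subunit protein, rose by 0.72 ± 0.052, from 853, 892 and 840 CPM to 1494, 1389 and 1381 CPM. RPL5, which joins RPL11 and 5S RNA in a particle that can bind MDM2, rose by 0.56 ± 0.048, and RPL11 by 0.55 ± 0.054. RPL26 rose by 0.64 ± 0.054, RPL23 by 0.57 ± 0.055, RPS3 by 0.39 ± 0.063, RPS7 by 0.36 ± 0.055 and RPS14 by 0.31 ± 0.057. The stalk genes RPLP0, RPLP1 and RPLP2 rose by 0.37 ± 0.049, 0.33 ± 0.063 and 0.41 ± 0.075. RPSA, a small subunit protein also called the laminin receptor, rose by 0.56 ± 0.049, and RPS6, the target of S6 kinase, by 0.50 ± 0.048. RPS4X, the X-linked small subunit gene, rose by 0.69 ± 0.050 and RPL3, near the peptidyl transferase centre, by 0.65 ± 0.050.

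The direction held under each scaling tried, but its size did not. With library totals in place of TMM factors, the median of all tested genes moved to -0.29 and that of the 82 genes to 0.14, which is 0.43 above all genes; 45 of the 82 then rose and 3 fell. With GC content and length corrected, 70 rose and 2 fell, beside 25.8% and 23.3% of all genes. Among the genes just named, RPLP1, RPLP2, RPS7 and RPS14 did not pass with library totals, with changes of 0.06, 0.14, 0.09 and 0.04.

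**Figure D2:**
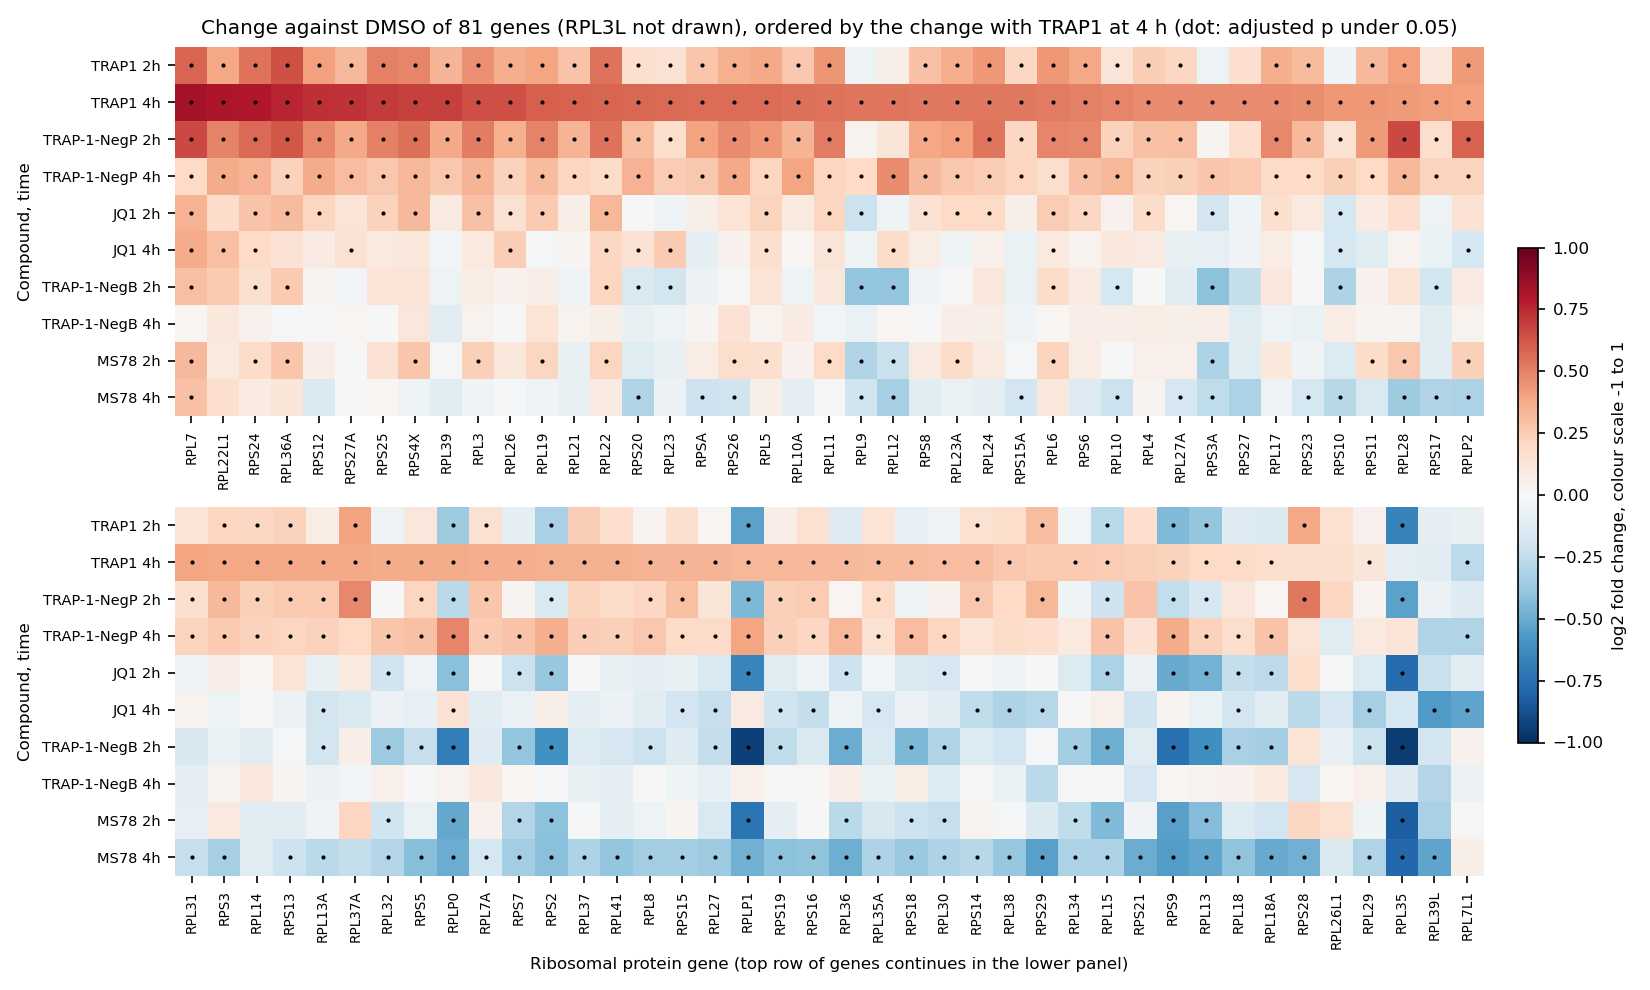
Change against DMSO at the same time for 81 of the 82 genes (columns, ordered by the change with TRAP1 at 4 h; RPL3L is not drawn) in each compound and time (rows). Colour is the log2 fold change with TMM scaling, on a scale from -1 to 1, and dots mark an adjusted p under 0.05. With TRAP1 at 4 h nearly all columns are red, with TRAP-1-NegB at 4 h no column has a dot, and with MS78 at 4 h most are blue. With library totals as scaling the JQ1 row at 4 h turns from 14 rises and 15 falls to 4 rises and 46 falls. The median is then -0.17 for the 82 genes and -0.14 for all tested genes.

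At 2 h TRAP1 had moved the genes both ways. Against DMSO 44 of the 82 rose and 7 fell, with a median of 0.17, beside 15.7% and 14.3% of all tested genes. RPL36A went from 434, 465 and 423 CPM in DMSO to 720, 682 and 650 CPM, without overlap (0.64 ± 0.074, adjusted p = 5.76e-09). RPL7, RPL22 and RPS24 rose by 0.58 ± 0.044, 0.54 ± 0.048 and 0.54 ± 0.051. RPL22 encodes an RNA-binding large subunit protein. Falls were led by RPL35, a protein near the exit tunnel, from 1987, 2039 and 1988 CPM to 1353, 1240 and 1183 CPM (-0.67 ± 0.077, adjusted p = 1.71e-08). RPLP1 fell from 2732, 2703 and 2605 CPM to 1932, 1867 and 1762 CPM (-0.53 ± 0.063), and the groups of both genes were clearly separate. RPS9 and RPL13 followed at -0.45 ± 0.065 and -0.38 ± 0.065. With library totals the split was 31 higher and 19 lower.

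TRAP-1-NegP also raised most of the genes. At 4 h 69 of the 82 rose and 1, RPL7L1, fell, with a median of 0.24, or 1.18-fold, where 18.6% of all tested genes rose and 18.9% fell. The order differed from that with TRAP1. RPLP0, the stalk base, went from 4968, 5220 and 5226 CPM in DMSO to 7224, 7249 and 7111 CPM, without overlap (0.49 ± 0.049, adjusted p = 6.21e-12). RPL12, whose protein sits at the foot of the stalk, went from 1453, 1535 and 1483 CPM to 2129, 1975 and 2110 CPM (0.47 ± 0.049, adjusted p = 1.09e-11). RPLP1 and RPL10A rose by 0.40 ± 0.063 and 0.40 ± 0.057, while RPL7, at 1399, 1305 and 1383 CPM, rose by only 0.20 ± 0.044 (adjusted p = 0.000207). With library totals the calls fell to 21 higher and 2 lower, since the median of all genes moved to -0.19.

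At 2 h TRAP-1-NegP gave 53 rises and 7 falls, with a median of 0.27, beside 16.4% and 13.9% of all genes. RPL28, a large subunit protein, went from 632, 636 and 651 CPM to 986, 1016 and 1026 CPM (0.66 ± 0.082, adjusted p = 1.58e-07), and RPL7 from 1177, 1256 and 1170 CPM to 1910, 1895 and 1879 CPM (0.66 ± 0.044, adjusted p = 6.00e-18). In neither gene did the groups overlap. RPL36A and RPLP2 rose by 0.62 ± 0.074 and 0.59 ± 0.076. RPL35, RPLP1, RPLP0 and RPS9 fell by 0.53 ± 0.077, 0.45 ± 0.063, 0.27 ± 0.049 and 0.25 ± 0.065 on the log2 scale. With library totals the split was 39 higher and 11 lower.

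JQ1 moved genes in both directions, and the split depended on the scaling. At 4 h 14 rose and 15 fell, with a median of -0.04, where 24.3% of all tested genes rose and 24.6% fell; with library totals 4 rose and 46 fell, with TMM factors computed without these genes 12 rose and 21 fell, and with GC content and length corrected 35 rose and 10 fell. RPL7 still rose, to 1545, 1544 and 1514 CPM, above all DMSO libraries (0.37 ± 0.044, adjusted p = 2.73e-10). RPL23 and RPL26 rose by 0.26 ± 0.055 and 0.25 ± 0.054. The paralog RPL22L1 rose by 0.30 ± 0.104 (adjusted p = 0.0131), and its call was lost with the GC correction (0.16, adjusted p = 0.214), with library totals (0.17, adjusted p = 0.17) and without a count filter. It was lost too without DMSO at 4 h replicate 3 or JQ1 at 4 h replicate 3, with adjusted p values of 0.0521 and 0.0689. RPL29, a small basic large subunit protein, fell by 0.33 ± 0.054 and RPL38, which some developmental mRNAs depend on, by 0.31 ± 0.102 on the log2 scale. The fall of RPL29 was -0.08 with the GC correction and did not pass (adjusted p = 0.0513). Without DMSO at 4 h replicate 2, or JQ1 at 4 h replicate 2, RPL38 had adjusted p values of 0.0586 and 0.0576.

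After 2 h of JQ1 19 genes rose and 16 fell, with a median of 0.01, beside 14.8% and 13.9% of all genes; with library totals 15 rose and 28 fell, and with the GC correction 35 and 13. RPL7, RPL22, RPS4X and RPL36A led the rises at 0.35 ± 0.044, 0.33 ± 0.048, 0.33 ± 0.050 and 0.32 ± 0.074. RPL35 fell to 1114, 1171 and 1251 CPM (-0.77 ± 0.077, adjusted p = 1.11e-09) and RPLP1 to 1557, 1768 and 1776 CPM (-0.66 ± 0.063, adjusted p = 2.98e-11), both below every DMSO library. RPS9 and RPL13 fell by 0.50 ± 0.065 and 0.48 ± 0.066 on the log2 scale.

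TRAP-1-NegB gave mostly falls at 2 h, and no call at 4 h in the fit with TMM scaling. At 2 h 5 rose and 29 fell, with a median of -0.13, beside 5.08% and 5.87% of all genes. RPL35 was at 944, 1051 and 1126 CPM (-0.95 ± 0.077, adjusted p = 6.85e-11) and RPLP1 at 1330, 1397 and 1477 CPM (-0.94 ± 0.064, adjusted p = 1.04e-14), and both groups of libraries lay far below DMSO. RPL7 and RPL36A rose by 0.30 ± 0.044 and 0.26 ± 0.074; without DMSO at 2 h replicate 3, RPL36A had an adjusted p of 0.0767. With the GC correction the split turned to 24 higher and 20 lower, beside 7.73% and 5.76% of all genes. With library totals it was 11 and 29, and without the libraries that stood apart 14 and 32. At 4 h the edgeR test called 0 of the 82 in either direction, where 0.827% of all genes rose and 0.2% fell. At an unadjusted p under 0.05 there were 5 higher and 4 lower, and the DESeq2 Wald test also called 0. With the GC correction 9 were higher and 0 lower, beside 1.95% and 0.487% of all genes. Without the libraries that stood apart 4 were higher and 0 lower. The median was 0.02 with a median SE of 0.056, and RPL7 was at 1181, 1238 and 1194 CPM, overlapping DMSO.

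MS78 lowered most of the genes it moved at 4 h. Of the 82, 1 rose and 50 fell, with a median of -0.26, or 0.835-fold, beside 6.23% and 9.05% of all genes. Library totals gave 7 higher and 43 lower. The GC correction gave 8 higher and 30 lower with a median of -0.09, beside 2.87% and 2.93% of all genes. Of the small subunit genes 22 of 31 fell. RPL35 was at 1033, 1115 and 1168 CPM against 1708, 1973 and 2038 CPM in DMSO (-0.79 ± 0.077, adjusted p = 7.12e-09). RPS9 was at 771, 788 and 761 CPM against 1050, 1198 and 1177 CPM (-0.56 ± 0.065, adjusted p = 2.35e-08). In both genes the groups were apart. RPL7 was the gene that rose, to 1509, 1426 and 1429 CPM (0.29 ± 0.044, adjusted p = 2.09e-06). At 2 h the counts were 15 higher and 16 lower, beside 8.3% and 7.65% of all genes, and a fit of these groups alone gave 1 higher and 8 lower. The split was 7 and 28 without the libraries that stood apart and 15 and 24 with library totals. It was 31 and 16 with the GC correction, beside 10.5% and 8.69% of all genes. RPL35 and RPLP1 fell by 0.82 ± 0.077 and 0.73 ± 0.063 on the log2 scale, and RPL7 and RPL36A rose by 0.33 ± 0.044 and 0.28 ± 0.074. Replicate 1 of MS78 at 2 h stood apart in these genes as well: RPL36A was at 624 CPM there and at 471 and 503 CPM in the other libraries. Without it the change of RPL36A was 0.14 (adjusted p = 0.237).

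**Figure D3:**
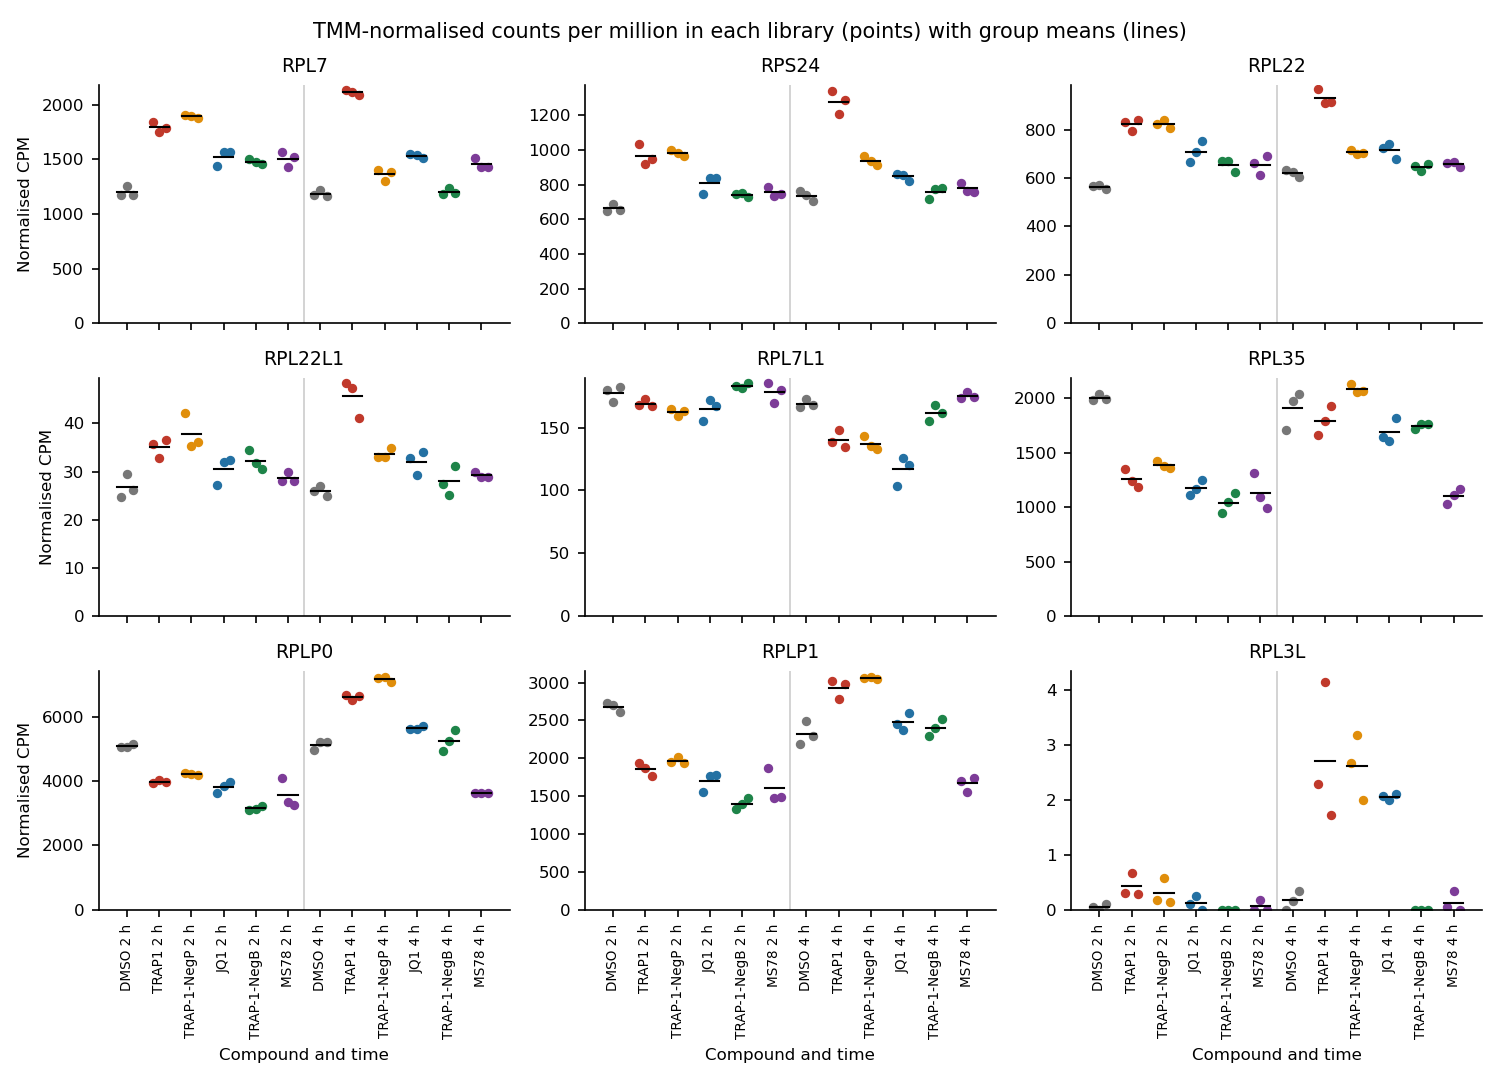
Levels in TMM-normalised CPM of 9 members in each library (points) with the group mean (line), by compound and time, each panel on its own linear axis from 0. RPL7 is highest with TRAP1 at 4 h, between 2093 and 2137 CPM; RPL35 and RPLP1 lie below DMSO in all 5 compound groups at 2 h and with MS78 at 4 h; RPL3L is close to 0 except with TRAP1, TRAP-1-NegP and JQ1 at 4 h.

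The compounds were also compared with each other at matched dose and time, in 6 comparisons. At 4 h 79 of the 82 genes were higher with TRAP1 than with JQ1 and 0 were lower, with a median difference of 0.46, or 1.37-fold, where 12.5% of all genes were higher and 14.9% lower. The unadjusted p gave 80 higher and 0 lower, as did DESeq2. With the GC correction 64 were higher and 2 lower, with a median of 0.27, beside 12.6% and 9.93% of all genes. The mean GC gap of the libraries was 0.22 with TRAP1 and -0.12 with JQ1. RPL39, a small large subunit protein at the exit tunnel, was at 1414, 1352 and 1394 CPM with TRAP1 and 837, 851 and 859 CPM with JQ1 (0.71 ± 0.064, adjusted p = 4.29e-12). RPSA was at 3416, 3384 and 3390 CPM against 2162, 2148 and 2178 CPM (0.65 ± 0.049, adjusted p = 8.63e-16). The libraries of these groups did not meet. RPL35 did not pass, with a difference of 0.09 and a 95% interval from -0.07 to 0.24.

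JQ1 also stood below TRAP-1-NegP. At 4 h 1 gene, RPL7, was higher with JQ1 (0.17 ± 0.044, adjusted p = 0.00256; 0.0669 with the GC correction) and 67 were lower, with a median of -0.30, beside 12.9% of all genes in each direction. RPL38 was at 271, 247 and 262 CPM with JQ1 and 407, 330 and 363 CPM with TRAP-1-NegP (-0.49 ± 0.102, adjusted p = 0.000612), and RPS29 at 308, 298 and 280 CPM against 422, 408 and 380 CPM (-0.45 ± 0.118, adjusted p = 0.00564). The groups did not overlap in either gene. At 2 h 0 were higher and 65 lower, with a median of -0.25, beside 5.65% and 7.26% of all genes. The unadjusted p gave 0 and 75 and DESeq2 0 and 70. RPL28 and RPLP2 differed most, at -0.49 ± 0.082 and -0.44 ± 0.075, and RPLP2 did not pass with the GC correction (-0.12, adjusted p = 0.191). With that correction 1 was higher and 31 lower at 2 h, and 0 and 47 at 4 h.

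TRAP1 and TRAP-1-NegP differed at 4 h. Of the 82 genes 41 were higher with TRAP1 and 0 lower, with a median of 0.17, where 7.25% of all genes were higher and 8.09% lower. The unadjusted p gave 49 higher and 3 lower, DESeq2 45 and 0, library totals 30 and 6, and the GC correction 40 and 5. With that correction 10.4% of all genes were higher and 7.99% lower. RPL7 and RPL36A differed most, by 0.63 ± 0.044 (adjusted p = 4.21e-17) and 0.54 ± 0.074 (adjusted p = 7.13e-07), with all TRAP1 libraries above. RPLP0 went the other way without passing, at -0.12 with a 95% interval from -0.22 to -0.02 (adjusted p = 0.0995). At 2 h 0 were higher and 1 lower, beside 0.527% and 0.274% of all genes. The gene was RPL18, at 1020, 1061 and 1044 CPM with TRAP1 and 1251, 1208 and 1233 CPM with TRAP-1-NegP (-0.24 ± 0.057, adjusted p = 0.019). That call was lost with the GC correction (-0.09, adjusted p = 0.146). It was lost as well without replicate 1 or 3 of either group, with adjusted p values of 0.0739 to 0.118. The unadjusted p gave 0 higher and 20 lower at 2 h, DESeq2 0 and 1, and a fit of these groups alone 0 and 29. The GC correction gave 1 and 2, beside 0.927% and 0.347% of all genes. RPL7 differed at 2 h by -0.08, with a 95% interval from -0.16 to 0.01.

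TRAP1 against JQ1 at 2 h gave 21 higher and 0 lower, with a median of 0.17, beside 1.1% and 0.887% of all genes. The unadjusted p gave 58 and 0, and DESeq2 34 and 0. This count moved with single libraries: it was 2 without JQ1 at 2 h replicate 1, 13 without JQ1 at 2 h replicate 2 and 7 without TRAP1 at 2 h replicate 1. RPL36A differed by 0.32 ± 0.073 (adjusted p = 0.0123) and RPLP2 by 0.28 ± 0.075 (adjusted p = 0.042). With the GC correction 11 were higher and 0 lower, beside 1.70% and 1.14% of all genes, and neither gene passed (adjusted p = 0.197 and 0.252). Without JQ1 at 2 h replicate 1 or TRAP1 at 2 h replicate 1 RPL36A had adjusted p values of 0.147 and 0.11. RPLP2 also did not pass in the fit of only these groups, nor without the libraries that stood apart, with the replicate block, or without replicate 1 or 2 of either group (adjusted p = 0.0512 to 0.383).

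**Figure D4:**
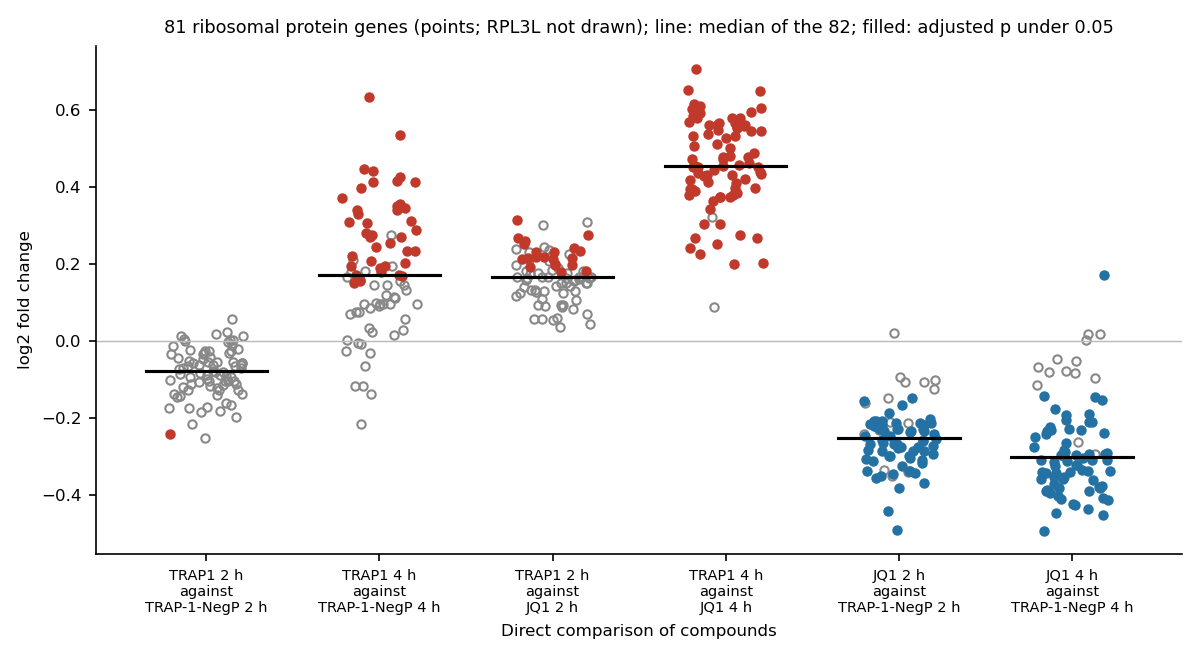
Differences between compounds at the same dose and time for 81 genes (points; RPL3L is not drawn), as log2 fold changes with TMM scaling; filled points have an adjusted p under 0.05 and lines mark the median of the 82 genes. TRAP1 at 4 h lies above JQ1 at 4 h with a median of 0.46, and TRAP1 and TRAP-1-NegP at 2 h lie close together with a median of -0.08.

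The DMSO libraries themselves differed between the times. From 2 to 4 h 48 genes rose and 1 fell, with a median of 0.19, beside 11.4% and 9.45% of all genes. Without DMSO at 4 h replicate 2 the counts were 29 and 2, and with library totals 29 and 4. With the GC correction they were 41 and 7, beside 6.53% and 5.69% of all genes. RPL28 went from 632, 636 and 651 CPM to 846, 1017 and 1057 CPM (0.61 ± 0.082, adjusted p = 2.73e-06). RPLP2 went from 343, 359 and 319 CPM to 445, 531 and 528 CPM (0.56 ± 0.075, adjusted p = 7.75e-07). The times did not overlap for either gene. RPLP1 was the gene that fell, by 0.21 ± 0.063 on the log2 scale (adjusted p = 0.0149).

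The effects against DMSO were tested for a change between 2 and 4 h. The TRAP1 effect was higher at 4 h in 48 genes and lower in 0, with a median difference of 0.26, beside 10.2% and 11.8% of all genes; with library totals the counts were 22 and 1. The unadjusted p gave 53 and 1, and DESeq2 53 and 0. RPLP1 and RPLP0 differed most, by 0.86 ± 0.089 (adjusted p = 8.08e-10) and 0.73 ± 0.070 (adjusted p = 1.28e-11). The effects of TRAP-1-NegB and MS78 were not tested between the times. With TRAP-1-NegB RPLP1 was at -0.94 at 2 h, and the stalk genes lay from 0.04 to 0.05 at 4 h with 0 called. With MS78 they were still lower at 4 h, from -0.49 to -0.32. By these values the shift of RPLP1 was not particular to TRAP1, TRAP-1-NegP or JQ1. For TRAP-1-NegP 14 effects were higher and 15 lower at 4 h, beside 11% and 12.2% of all genes. RPLP1 and RPLP0 were again first among the higher, at 0.84 ± 0.089 and 0.75 ± 0.070, and RPL7 and RPL36A among the lower, at -0.46 ± 0.062 and -0.39 ± 0.104. For JQ1 9 effects were higher and 10 lower, beside 13.2% and 12.8% of all genes. The counts were 9 and 20 with library totals. They were 16 and 16 with the GC correction, beside 14.4% and 13.8% of all genes. RPLP1 and RPL35 were higher, at 0.75 ± 0.089 and 0.59 ± 0.108, and the paralog RPL7L1 lower at -0.42 ± 0.086. RPLP2 was lower at -0.32 ± 0.106 (adjusted p = 0.0201), a call lost with the GC correction (-0.15, adjusted p = 0.139) and with length-scaled counts. Without DMSO at 2 h replicate 3, DMSO at 4 h replicate 2, JQ1 at 2 h replicate 3 or JQ1 at 4 h replicate 2, it had adjusted p values of 0.0503 to 0.0758. RPL13, RPL15, RPLP0, RPLP1, RPS2 and RPS9 were below DMSO at 2 h and above it at 4 h with both TRAP1 and TRAP-1-NegP. RPLP0 was at 3942, 4032 and 3971 CPM with TRAP1 at 2 h, below the 5072, 5065 and 5176 CPM of DMSO. At 4 h it was at 6707, 6532 and 6659 CPM, above DMSO.

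The extra copies did not all move with their parent genes. RPL22L1, the paralog of RPL22, was at 26.01, 27.05 and 24.99 CPM in DMSO at 4 h and at 48.3, 47.4 and 41.1 CPM with TRAP1 (0.81 ± 0.103, adjusted p = 2.31e-09), while RPL22 went from 632, 625 and 606 CPM to 966, 910 and 916 CPM. Both members of that pair were higher with no overlap. RPL7L1, the paralog of RPL7, was at 166, 172 and 168 CPM in DMSO and at 138, 148 and 135 CPM with TRAP1 (-0.26 ± 0.061, adjusted p = 0.000249). With TRAP-1-NegP it was at 143, 135 and 133 CPM (-0.30 ± 0.061, adjusted p = 6.34e-05) and with JQ1 at 104, 126 and 121 CPM (-0.53 ± 0.061, adjusted p = 1.14e-10). It was thus below DMSO in each of these groups, in which RPL7 was above. RPL39L, the paralog of RPL39, fell with JQ1 at 4 h from 15.2, 18.4 and 16.9 CPM to 10.8, 12.8 and 10.5 CPM (-0.56 ± 0.174, adjusted p = 0.0056). With TRAP1 at 4 h its libraries were at 19.1, 11.3 and 16.4 CPM and overlapped DMSO. RPL26L1 was at 36.43, 24.97 and 32.86 CPM with TRAP1 at 4 h and 28.97, 30.28 and 25.28 CPM in DMSO, also overlapping (0.16 ± 0.130, adjusted p = 0.343).

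RPL3L was at the edge of detection. Its counts were 0, 3 and 7 in the DMSO libraries at 4 h, 47, 90 and 30 with TRAP1, 53, 71 and 33 with TRAP-1-NegP and 38, 39 and 42 with JQ1. No library of these compound groups overlapped DMSO. The fitted changes were 3.96 ± 1.06 (adjusted p = 0.00157), 3.90 ± 1.06 (adjusted p = 0.00245) and 3.56 ± 1.05 (adjusted p = 0.00386), and their sizes depend on the few DMSO counts. All 6 TRAP-1-NegB libraries had a count of 0, and no other library outside those 3 groups had a count above 12.

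The changes ran with the base composition of the genes in several comparisons. The 82 genes had a median exon GC content of 50%, from 40.99% to 62.44%, by GENCODE v29. Across the 82 genes, Spearman's rho between GC content and change was -0.39 with TRAP1 at 4 h, -0.59 with MS78 at 4 h and 0.20 with TRAP-1-NegP at 4 h. For TRAP1 against TRAP-1-NegP at 4 h it was -0.60. Genes share their libraries and are not independent, so no p is given. Among the 13388 other genes with a GC content rho was -0.05, -0.54, -0.01 and -0.11 in the same comparisons. Of the 41 members of lower GC 38 rose with TRAP1 at 4 h (median 0.50), and of the 41 of higher GC 37 rose (median 0.37). The GC gap of the libraries, shown with the shares of TPM, averaged 0.34 in DMSO at 4 h, 0.22 with TRAP1, 0.31 with TRAP-1-NegP and -0.13 with MS78 at 4 h. At 2 h it averaged -0.13 in DMSO and -0.33 with TRAP-1-NegB. Its part in the results was not tested beyond the correction for GC content and length. Counts with that correction not given elsewhere were 48 higher and 13 lower for TRAP1 at 2 h, 49 and 12 for TRAP-1-NegP at 2 h, 60 and 1 for TRAP-1-NegP at 4 h, 45 and 0 for the TRAP1 effect between times and 22 and 19 for the TRAP-1-NegP effect.

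**Figure D5:**
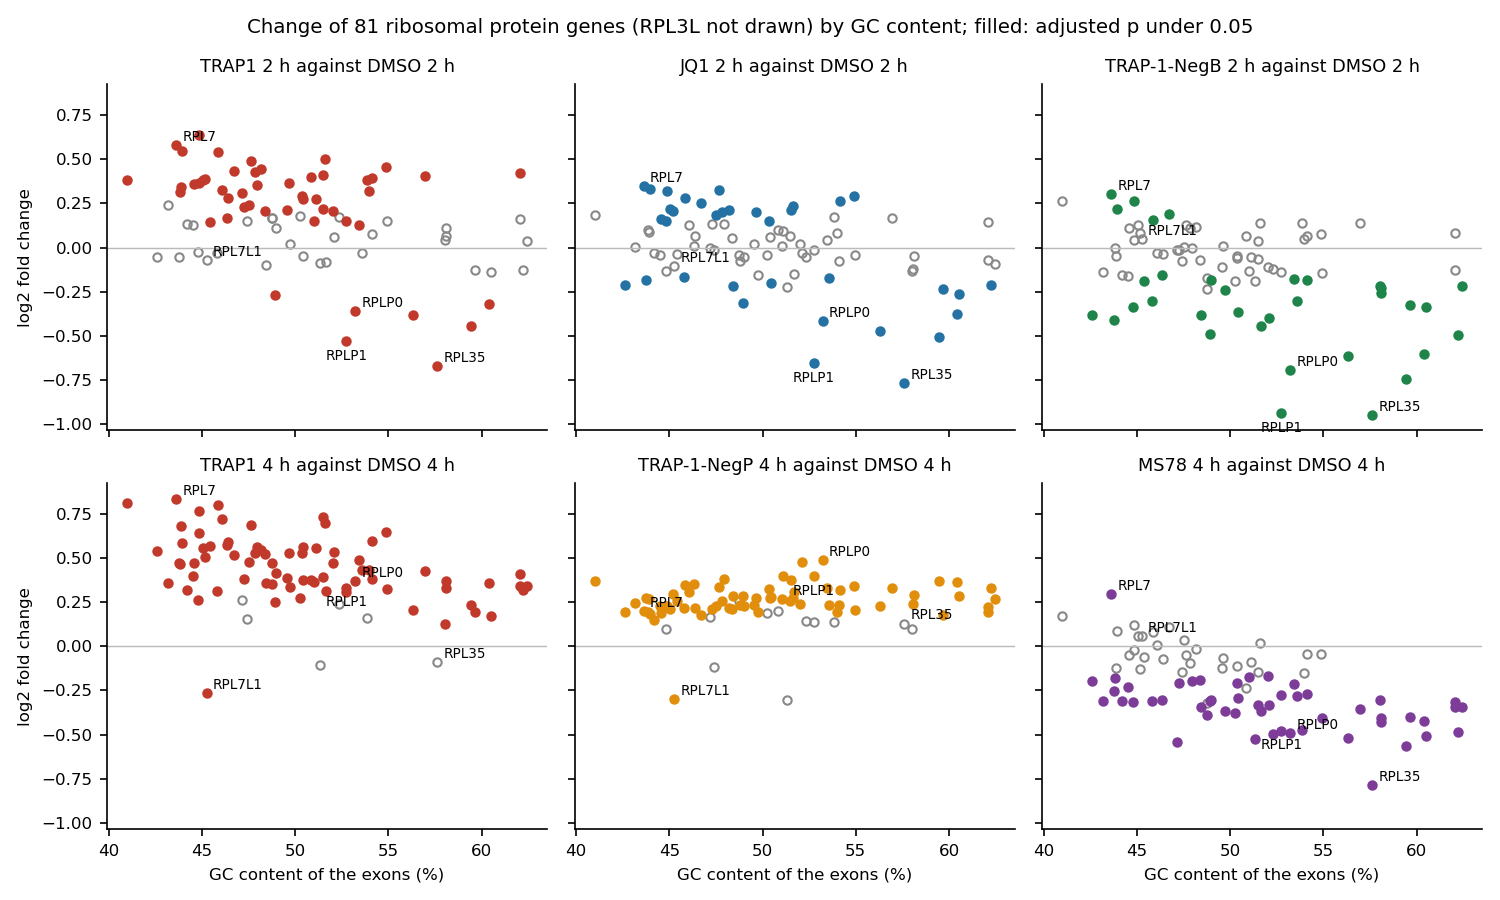
Change against DMSO (log2 fold change, TMM scaling) by exon GC content (%) for 81 genes (RPL3L is not drawn) in 6 comparisons; filled points have an adjusted p under 0.05. With TRAP1 at 4 h both ends of the GC range lie above 0. With MS78 at 4 h the changes become more negative toward high GC, with RPL35 lowest at -0.79. With the GC correction the TRAP-1-NegB comparison at 2 h changes from 5 rises and 29 falls to 24 and 20. All tested genes then have 7.73% higher and 5.76% lower.

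Genes with and without a pyrimidine run at the start were counted apart. With TRAP1 at 4 h 45 of the 47 genes with a run rose and 0 fell (median 0.40), and of the 18 without one 14 rose and 1 fell (median 0.42). With TRAP-1-NegP at 4 h 39 of 47 and 14 of 18 rose, and with MS78 at 4 h 31 of 47 and 9 of 18 fell. These counts are a description and the difference was not tested. The split depends on the exact annotated start base. RPL10A and RPL4, counted as without a run, have a run of pyrimidines that begins a few bases after it. The split is therefore not one between genes with and without a TOP tract.

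Other genes of translation gave a mixed picture with TRAP1 at 4 h. Of 17 other listed genes with TOP mRNAs 15 rose and 1 fell, with a median of 0.45. Among them the poly(A)-binding protein gene PABPC1 rose by 0.66 ± 0.042, the elongation factor gene EEF1A1 by 0.60 ± 0.043, the nucleolar chaperone gene NPM1 by 0.68 ± 0.052 and TPT1 by 0.60 ± 0.046, while EIF4B fell by 0.45 ± 0.048 on the log2 scale. With JQ1 at 4 h 12 of these 17 rose and 2 fell, with a median of 0.20. Among ribosomal protein genes under other names, RACK1, listed under its older symbol GNB2L1, rose with TRAP1 at 4 h by 0.23 ± 0.054 and FAU by 0.36 ± 0.076. Of 76 mitochondrial ribosomal protein genes 7 rose and 34 fell with TRAP1 (median -0.16), and 0 rose and 56 fell with JQ1 (median -0.41). Of 8 listed genes for chaperones and other partners of ribosomal proteins 0 rose and 4 fell with TRAP1. PDCD2L fell by 1.27 ± 0.166, HEATR3 by 1.09 ± 0.159, GRWD1 by 0.93 ± 0.082 and LTV1 by 0.91 ± 0.111 on the log2 scale. In all comparisons the lists were set beside the share of all tested genes given above.

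Across the 12 group means most members followed the same course. The correlation of a member's log2 level with the mean of the other members, paralogs left out of that mean, had a median of 0.93 over the 82 genes and was above 0.9 in 53 of them. All these levels share libraries, depth and scaling, and the correlations are a description. The lowest was that of RPL7L1, at -0.63, followed by RPL7 at 0.40 and RPL26L1 at 0.47. The highest of the 12 group means was that of TRAP1 at 4 h in 69 genes and that of TRAP-1-NegP at 4 h in 10. The lowest was that of TRAP-1-NegB at 2 h in 45. Neither these counts nor the correlations were computed for the other tested genes. How far they are particular to the members is therefore not known.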

How the data were processed

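RNA from 36 BxPC-3 libraries was analysed in 12 groups, by the compound and time in the labels. The authors deposited estimated counts per gene and TPM from Salmon 1.10.3 in nf-core/rnaseq 3.18.0 against hg38, per the submitters' processing notes; for the annotation release, the version is not given in the sources used. Estimated counts were rounded and fitted across all 36 libraries with edgeR 4.0.16 (quasi-likelihood, robust, TMM factors, filterByExpr with a minimum count of 10, R 4.3.3), with Benjamini-Hochberg adjustment over 14988 genes in each of 20 comparisons. All 36 columns were used and 0 were left unmapped. TPM served for shares and levels between genes. DESeq2 1.42.0 and limma 3.58.1 were also loaded, DESeq2 for an alternative test. The members and gene lists were chosen with earlier results of these data known. Genes were named if they had an adjusted p under 0.05, at least 5 CPM and no overlap between libraries: the 4 largest each way against DMSO for TRAP1, TRAP-1-NegP and JQ1, the 2 largest each way elsewhere, plus a fixed panel of 31 genes. The fit was tested on simulated data for TRAP1 at 4 h against DMSO, in which 14559 genes passed the count filter. The changed genes were drawn from those of at least 5 CPM. It recovered 75 of 100 genes changed 1.5-fold and 100 of 100 changed 3-fold, with 8 calls outside them. Total counts of 15288688 to 26608325 per library set the counting precision. Alternatives covered scaling, filter, GC content and length, length-scaled counts, DESeq2, the replicate number and each library left out.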

Additional observations from a re-analysis of the deposited data

Results flagged for a closer look

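The effect against DMSO differed between 4 and 2 h, by the test of that difference in the edgeR fit, in 48 of the 82 genes with TRAP1, 29 with TRAP-1-NegP and 19 with JQ1. Over all tested genes the effect was higher at 4 h in 10.2% and lower in 11.8% with TRAP1, 11% and 12.2% with TRAP-1-NegP, and 13.2% and 12.8% with JQ1; the count for JQ1 is no larger a share than that of all genes. These tests share the DMSO libraries, which themselves differed between the times.

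A few genes were called lower than DMSO at 2 h and higher at 4 h. With TRAP1 the difference of the effects was 0.59 for RPL13, 0.52 for RPL15, 0.73 for RPLP0, 0.86 for RPLP1, 0.68 for RPS2 and 0.68 for RPS9 on the log2 scale. With TRAP-1-NegP it was 0.40 for RPL13, 0.49 for RPL15, 0.75 for RPLP0, 0.84 for RPLP1, 0.51 for RPS2 and 0.62 for RPS9. With JQ1 the same turn was seen in RPLP0, at 0.56. TRAP-1-NegB, not tested between the times, had RPLP1 at -0.94 at 2 h. Its stalk genes lay from 0.04 to 0.05 at 4 h, with 0 called. How far base composition, which moved with time in the DMSO libraries, bears on these genes one by one was not tested.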

How the results depend on the processing

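Of 367 recomputed values of the called counts and of the share, 333 stayed within 1.5 times of the reported count or within the spread. Each count was the sum of higher and lower calls, so a change of direction was not scored. The 333 thus include TRAP-1-NegB at 2 h with the GC correction, which went from 5 higher and 29 lower to 24 and 20. Library totals in place of TMM factors gave 48 called genes for TRAP1 at 4 h, 23 for TRAP-1-NegP at 4 h, 50 for JQ1 at 4 h, 4 for TRAP1 against TRAP-1-NegP at 2 h, 23 for the TRAP1 effect between times and 29 for the JQ1 effect. The GC and length correction gave 45 for JQ1 at 4 h, 9 for TRAP-1-NegB at 4 h, 47 for MS78 at 2 h, 3 for TRAP1 against TRAP-1-NegP at 2 h, 11 for TRAP1 against JQ1 at 2 h, 32 for JQ1 against TRAP-1-NegP at 2 h and 32 for the JQ1 effect. For TRAP-1-NegB at 4 h, no count filter, length-scaled counts and a fit of the compared groups alone gave 1 each, and leaving out both libraries that stood apart gave 4. For TRAP1 against TRAP-1-NegP at 2 h the same settings gave 7, 3, 29 and 12. For TRAP1 against JQ1 at 2 h DESeq2 gave 34, no filter 46, the compared groups alone 48 and leaving out both libraries 49. The compared groups alone gave 9 for MS78 at 2 h. The causes were not tested. Leaving out 1 library gave 2 to 27 calls for TRAP1 against JQ1 at 2 h, 0 to 1 for TRAP1 against TRAP-1-NegP at 2 h and 31 to 46 for DMSO between times.

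With library totals at 2 h of TRAP1, RPS19 was at -0.0606 and RPL13A at -0.0475, and at 4 h RPL26L1 was at -0.11, each turned from its reported sign. Leaving out 1 library, RPL39L ran from -0.235 (without DMSO replicate 3) to 0.0266 (without DMSO replicate 1) at 2 h, and from -0.283 (without TRAP1 replicate 1) to 0.0786 (without TRAP1 replicate 2) at 4 h. Of 2269 recomputed values for single genes 2182 kept their call and direction, 75 lost the call, 7 gained one and 5 turned.

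Replicate numbers did not pair the libraries: same-numbered deviations correlated at -0.046 to 0.064. With the replicate block TRAP1 at 4 h had 74 genes higher and 1 lower and TRAP1 against JQ1 at 2 h had 19 higher. Every library correlated best with its own number in 2 of 17 comparisons, a hint from the data and not the design.

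Depth limits RPL3L, RPL39L and RPL26L1 most; intervals elsewhere rest on 3 libraries a group. Reads shared with pseudogenes limit all members.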
